A study of Mus musculus with 138 samples.

Results

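Bright array probes that fell silent in some lungs were the subject here. These probes gave a strong signal in a share of 138 mice, not always most of them, and no signal above background in a minority. A probe was called silent in a mouse where its deposited detection p-value, which asks whether its signal exceeds that of control beads, was above 0.05. Members had to be silent in 10 to 60 mice and to reach a 75th percentile over mice of 9 or more in the authors' log2 values, and names starting H2- or MTDNA_ were left out, which removed 7 probes. This left 75 of the 45281 probes on the array, of which 65 carried a gene symbol, and 73 names in all, since Actb and Gm4956 had 2 member probes each. Members were thus chosen by their detection p-values and brightness, so the silent and detecting levels given for them are descriptions without a test.

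Lung RNA came from pre-Collaborative Cross mice, 1 mouse from each of 138 partially inbred lines descended from WSB/Ei, PWK/Ph, NZO/H1LtJ, NOD/LtJ, CAST/Ei, C57BL/6J, A/J and 129S1/SvImJ founders. Every mouse was sensitized by intraperitoneal injection with 10 µg of the mite allergen Der p 1, challenged with 50 µg on day 15, and its lung taken on day 18, 72 hours after the challenge. No unchallenged mice, founder animals or genotypes were analysed here, and age and sex are not in the labels. Because each line is a mosaic of the founders, a stretch of chromosome is shared by different sets of lines at different places in the genome. The 138 mice form 1 group, and the single split the labels offer is a number in each title, over 120 in 64 mice and under 120 in 74, whose meaning is not given.

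Bead arrays read each transcript through short probes, so a gene may be read by several probes at different places along its RNA, and a level is the brightness of 1 probe. The arrays detected between 19075 and 21472 probes each (median 20426.5), and 24450 probes that were detected in at least 14 mice were kept for tests. Of 40 kept markers of alveolar, club, ciliated and endothelial cells, 34 were detected in every mouse, and the least often seen, Bpifa1, was undetected in 34 mice, so the arrays read lung. Each mouse had 1 to 25 silent members (median 10), the fewest in line OR1496 and the most in OR799, whose arrays detected 20672 and 20843 probes. All 75 members were silent in mice of both title number ranges.

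The members were silent in 10 to 53 mice (median 16), and the other mice of the 138 are called detecting. Their median normalized levels were 5.54 to 10.96 log2 in detecting mice and 4.32 to 4.71 log2 in silent mice, where the array floors, the lowest signal of any detected probe, were 4.76 to 5.01 log2. Since a silent probe has only an upper bound, differences are given as at least so many fold, the mean of the detecting mice over the mean floor of the silent mice's arrays (or the probe's own value where higher). By this measure all 75 members differed by at least 4.32-fold, 73 of them by 8-fold or more and 38 by 16-fold or more, with a median of 16.2-fold. In 59 members the detecting and silent ranges did not overlap. The same probe's detection p-value sets both groups, so this separation is largely built in. The share over all probes was not counted.

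Several members serve blood vessels and their walls. Cdh5, which encodes the cadherin that joins endothelial cells, ranged over 4.82, 10.11 and 10.92 log2 (lowest, median and highest) in detecting mice and over 4.27, 4.44 and 4.84 in 26 silent mice, at least 25.5-fold. Cd93, an endothelial and myeloid surface receptor, had 4.84, 10.20 and 11.44 log2 in detecting mice and 4.41, 4.66 and 4.92 in 11 silent mice. Of the detecting mice, 11 for Cdh5 and 2 for Cd93 lay in the lower 0.333 of the span between the silent and detecting medians, and 1 of each lay below the highest silent mouse. Ptprb, the phosphatase that restrains vascular cadherin signalling, reached a median of 10.20 log2 in detecting mice, against 4.40 in 10 silent mice. Slco2a1, which carries prostaglandins out of the extracellular space, had 5.82, 10.16 and 10.79 log2 in detecting mice and 4.28, 4.33 and 4.84 in 10 silent mice. Adgrf5, an adhesion receptor that limits surfactant in the alveoli, Notch3, a receptor of vascular smooth muscle, Nostrin, which binds endothelial nitric oxide synthase, Aoc3, a vascular amine oxidase, and Amotl1, a junction protein, were members too, with at-least folds between 10.6 for Aoc3 and 26 for Amotl1.

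Immune and secreted proteins gave another set. S100a8, which encodes a calcium-binding protein abundant in neutrophils, had the largest fold among genes with a symbol: 5.05, 10.47 and 12.71 log2 in detecting mice and 4.32, 4.45 and 4.78 in 19 silent mice, at least 45.3-fold. Of the detecting mice, 4 lay under 6 log2, 1 between 6 and 8, and all others above 8, so few mice lay between the levels. Il18r1, a chain of the interleukin-18 receptor, had 8.10, 10.02 and 11.10 log2 in detecting mice and 4.24, 4.33 and 4.82 in 10 silent mice, with an empty gap of over 3 log2 between them. Cfd, the complement factor D that fat cells secrete, Kng1, the kininogen precursor, Mpeg1, a pore-forming protein of macrophages, and Casp9, an initiator caspase of cell death, had medians in detecting mice of 8.58, 7.57, 8.67 and 9.13 log2, against silent medians of 4.71, 4.63, 4.61 and 4.66.

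Many of the named members take part in processes common to most cells. Mitochondrial and heme genes included Tmem14c, needed for porphyrin import in heme synthesis (at least 43.8-fold), Isca1, an iron-sulfur cluster assembly factor (41.1-fold), Ak3, a mitochondrial adenylate kinase (37-fold), Mrpl50, a ribosomal protein of mitochondria (25.9-fold), and Tomm22, a receptor of the import pore (9.36-fold). Isca1 illustrates the pattern: 5.69, 10.34 and 10.84 log2 in detecting mice, against 4.29, 4.35 and 4.59 in 19 silent mice. Enzymes of detoxification and lipid or sulfate metabolism included Mgst1, a glutathione transferase (46 silent mice), Aldh1a7, an aldehyde dehydrogenase (24), Maob, a monoamine oxidase (11), Hsd17b12, a fatty acid elongation enzyme (16), Msmo1, of sterol synthesis (10), and Papss2, which makes the sulfate donor (11). Protein turnover and signalling were represented by Psmc5, an ATPase of the proteasome, Rnf7, a cullin ligase subunit, Cops8, of the signalosome, Senp2, a SUMO protease, Fnip1, a folliculin partner, and Gnaq, a G protein subunit.

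Actb, the cytoskeletal actin used widely as a loading control, was the member with the most silent mice together with Sspn, which encodes sarcospan of the dystrophin complex. Its first probe had 4.99, 8.84 and 13 log2 in 85 detecting mice and 4.27, 4.39 and 4.86 in 53 silent mice. Of these detecting mice, 23 lay under 6 log2, 18 from 6 to 8, 22 from 8 to 12, and 22 above 12, a continuous spread unlike that of S100a8. Sspn had 5.10, 9.97 and 10.53 log2 in 85 detecting mice and 4.24, 4.33 and 4.61 in 53 silent mice, with no overlap.

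Families were counted by symbol pattern. Of the 65 members with a symbol, 3 (Mybphl, Myl3 and Sln), or 4.62%, were muscle and sarcomere genes, beside 0.408% of the 20598 kept probes with a symbol. Of the other patterns, 8 matched 1 member each, or 1.54%, beside 0.787% to 3.5% of kept probes, namely Aldh1a7, Hsd17b12, Slco2a1, Cd93, Il18r1, Zfp330, Mrpl50 and Sh3glb1, and 3 matched none. The patterns read the start of a symbol, so they miss members of like function under other names, such as Mgst1 and Msmo1.

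Probes just inside and just outside the limits of the rule lay close together in brightness and differed by 1 silent mouse at the lower end. Fam102b, Ntpcr and Rpusd4 lay just inside the brightness limit at 9.03, 9.06 and 9.06 log2, and Alg5 just under 9, with Scgb3a1 and Atxn7 at 8.99, lay outside. Nostrin, Msmo1 and Amotl1 were silent in 10 mice, whereas Itgb5, Chil3 and Rap1gds1 were silent in 9 and stayed out. At the upper end both Actb probes and Sspn were silent in 52 or 53 mice, and the nearest bright probes outside were those of Nnmt, Adamts9 and Fcer1g, silent in 63, 66 and 81 mice. Of the 5390 probes as bright, 5200 were detected in every mouse.

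A mixture of 2 normal distributions was set against a single one for every kept probe, counting a probe as having separate levels where the mixture was clearly the better description (a gain in the Bayesian information criterion over 10), its smaller part held at least 5 percent of mice, and the gap between its means exceeded both 1 log2 and 3 pooled SDs. By this measure 67 of 75 members had separate levels, beside 7.3% of all 24450 kept probes, a contrast that the rule itself builds in. The lower part of a mixture need not be the silent mice, so this count does not measure their separation from detecting mice. For Kng1, Epb41l2, Pigt and Msmo1 the lower mean was 7.04, 6.21, 6.32 and 6.04 log2. That part held 86.2%, 68.1%, 67.9% and 38.6% of mice, while 13, 20, 23 and 10 mice were silent. For Isca1, by contrast, the lower part held 14.5% of mice at a mean of 4.44 log2, with 19 mice silent. Members of either kind were not counted. The members without separate levels were both Actb probes, Cfd, Glmp, ITLNB, Myl3, Psip1 and 1 of the Gm4956 probes. Glmp was among these although its ranges did not overlap, with a highest silent value of 4.89 log2 and a lowest detecting value of 4.99.

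Markers of the same cell type or programme were read in the detecting and silent mice of members on a marker list and of other members of those tissues. In the mice in which S100a8 was silent, neutrophil genes were present: S100a9, which encodes its binding partner, had 7.20, 9.14 and 11.90 log2 in the detecting mice and 7.03, 8.93 and 10.17 in the 19 silent mice. It was detected in every mouse, and so were Retnlg, Ltf, Lcn2 and Mmp9, while Camp, Cxcr2 and Ngp were detected in 16, 14 and 10 of the 19 silent mice. The summed linear level of the 8 other kept neutrophil genes ranged from 2893 to 16740 in detecting mice and from 1889 to 16260 in silent mice, so the groups overlapped almost entirely. Median sums were 6915 in detecting mice and 6256 in silent mice. All of these genes but Retnlg had lower medians in silent mice, at most by 0.39 log2, for Ltf. Endothelial genes were likewise present where Cdh5 was silent, though not all at equal level. Pecam1 had median levels of 11.37 log2 in the detecting mice and 11.37 in the 26 silent mice, and Cldn5, Tek, Tie1, Esam and Ramp2 were detected in every mouse of both groups. Tek medians were 10.96 in detecting mice and 10.58 in silent mice, and Tie1 medians 8.97 and 8.66, whereas Cldn5 had 12.35 and 12.38. The summed level of the 6 other kept endothelial genes had medians of 19260 in detecting mice and 18070 in silent mice, with overlapping ranges. Across the mice in which Cd93 or Ptprb was silent, the 7 kept endothelial markers were also detected in every mouse. Tek was lower where Cd93 was silent, with medians of 10.92 log2 in detecting mice and 10.57 in silent mice, and Tie1 was higher, with 8.92 and 9.07. Aldh1a7 was silent in 24 mice in which the club cell genes Scgb1a1, Scgb3a2, Cyp2f2 and Cbr2 were all detected, with Scgb1a1 medians of 13.11 log2 in the detecting mice and 13.11 in the silent ones. Scgb3a1 and Bpifa1, also secreted by airway cells, were lower where it was silent: medians were 8.16 log2 in detecting mice and 6.75 in silent mice for Scgb3a1, and 6.68 in detecting mice and 5.38 in silent mice for Bpifa1, with overlapping ranges. Their part in the result was not tested.

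Heart muscle genes behaved differently. Where Sln was silent, medians of the other cardiac markers were lower as well, to differing degrees. Myl4, an atrial myosin light chain, had 7.76, 11.44 and 12.87 log2 in detecting mice and 6.33, 7.41 and 8.62 in 11 silent mice. Myh6, the cardiac myosin heavy chain, had medians of 8.95 in detecting mice and 4.87 in silent mice. Actc1 was detected in all 11 silent mice, with 8.34, 11.18 and 12.42 log2 in detecting mice and 9.02, 10.08 and 11.41 in silent mice. Ryr2 was detected in 6 of the 11, with medians of 5.91 in detecting mice and 4.88 in silent mice. Nppa, the atrial natriuretic peptide gene, was detected in 93 of the detecting mice and in 0 of 11 silent mice, and Tnni3, cardiac troponin I, was also detected in 0 of the 11. The summed linear level of the 7 other kept cardiac genes was 1538 to 19860 in detecting mice, against 772.9 to 2943 in silent mice. Beside Mybphl, Mb and Myl3 the median sum of 8 cardiac genes was 7353, 7354 and 7670 in detecting mice, against 1840, 2085 and 2119 in silent mice. Sln, itself a member, is among these 8 and shared silent mice with Mybphl, Mb and Myl3, so part of these differences is built in. In whole lung, fewer cells of a type and less RNA per cell cannot be told apart. Cfd moved with both fat and heart genes. Adipoq, a fat cell hormone gene, was detected in 64 of the mice that detected Cfd and in 0 of 16 that did not, with medians of 4.90 log2 in detecting mice and 4.43 in silent mice. Cardiac genes were lower too, with Myh6 medians of 8.95 log2 in mice that detected Cfd and 5.91 in those that did not. Sln medians were 9.41 in detecting mice and 6.56 in silent mice, and median cardiac sums 7182 in detecting mice and 2669 in silent mice. Both Adipoq medians lay near the floor, so the size of its difference cannot be ranked against those of the cardiac genes. The part of heart muscle RNA in the levels of Cfd was not tested. The chloride channel regulator Clca1, a mucous cell gene, had medians of 11.99 log2 in the mice that detected ITLNB and 10.44 in 20 that did not, with ranges that overlapped.

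Other probes of the same gene show whether the RNA was read elsewhere. Of the 75 members, 47 had another probe on the array, and 38 had a kept one that was not itself a member. In 29 of these 38, at least 1 other probe was detected in every mouse in which the member was silent. Over the 57 pairs of a member and such a probe, the other probe was detected in every silent mouse in 41 pairs and in no silent mouse in 3. The median level of the other probe in detecting mice minus that in silent mice had a median over pairs of 0.20 log2, whereas the same difference for the members of these pairs had a median of 4.63 log2. It was within 0.5 log2 of 0 in 39 pairs and over 1 log2 in size in 11, higher in detecting mice in 9 of these and lower in 2.

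Actb, Cdh5, Mgst1 and Zfp330 each had another probe of nearly equal level in detecting and silent mice. Another Actb probe had 12.51, 12.92 and 13.14 log2 in the 86 mice that detected the second member probe and 12.50, 12.90 and 13.12 in the 52 silent mice, so the ranges nearly coincided. A further Actb probe had medians of 12.04 log2 in detecting mice and 11.57 in silent mice. Yet another had medians of 12.90 in detecting mice and 12.75 in silent mice, with lowest values of 10.73 and 7.20. Another Cdh5 probe had median levels of 10.98 log2 in detecting mice and 10.85 in 26 silent mice. For Mgst1 the medians of the other probe were 11.65 log2 in 92 detecting mice and 11.70 in 46 silent mice, and for Zfp330, a nucleolar zinc finger protein, 8.88 in 86 detecting mice and 8.92 in 52 silent mice.

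Slco2a1 and Mb differed from these, as did LIP1 and Ptprb among others. The other LIP1 probe had medians of 8.53 log2 in detecting mice and 4.95 in 20 silent mice. The other Ptprb probe had medians of 7.84 in detecting mice and 4.51 in silent mice, and was detected in 3 of those 10. For Slco2a1, 1 other probe had 6.92, 11.40 and 11.86 log2 in detecting mice and 4.39, 4.57 and 6.30 in 10 silent mice, and another had medians of 10.56 in detecting mice and 4.38 in silent mice. In both, the ranges did not overlap, the only such pairs of the 57. Yet another Slco2a1 probe ran the other way, with 5.34, 6.30 and 7.22 log2 in detecting mice and 6.70, 7.37 and 8.07 in silent mice. The other Mb probe had medians of 6.93 log2 in detecting mice and 4.52 in silent mice, and was detected in 0 of the 14 silent mice. Of 3 other probes of the clone 4833439L19Rik, 1 was undetected in all 10 silent mice. The same held for 1 of 2 other Il18r1 probes, but that probe was near the floor throughout, detected in 29 of the detecting mice with a median of 4.63 log2, while the second Il18r1 probe had medians of 8.64 log2 in detecting mice and 8.0 in 10 silent mice.

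Among detecting mice, which the rule did not split, the member and the other probe were correlated for 39 of 59 pairs, or 66.1% (two-sided permutation test of Pearson's r, 100000 permutations, Benjamini-Hochberg over the 59 pairs), 33 positively and 6 negatively. The share among probe pairs of other genes was not counted, so 66.1% describes these pairs only. Pairs are not independent, since both Actb members enter several, and in 2 pairs the rule chose both probes. By Spearman's rho 43 pairs passed. The clearest were the 2 Actb members with each other (r = 1.00, rho = 0.99, 86 mice), LIP1 (r = 0.97, rho = 0.92, all but its 20 silent mice), Mb (r = 0.96, rho = 0.96, all but 14) and Kng1 (r = 0.86, rho = 0.85, all but 13), each with adjusted p = 2.81e-05 in this permutation test, the smallest it can give here. Without the 2 mice farthest from the member's median, r was 1.00, 0.95, 0.96 and 0.86. Within mice with title numbers over 120, r for Mb was 0.95, and within those under 120 it was 0.97. For 1 Tmem14c probe and the first Slco2a1 probe described, r was 0.85 and 0.82 over all detecting mice, and 0.56 and 0.68 once detecting mice in that lower 0.333 of the span between medians were left out, so part of the size rests on a few low mice. For another Actb probe r with the second member was 0.40 (rho = 0.39, adjusted p = 1.65e-04 by permutation), and without that lower span 0.25, no longer past the threshold (adjusted p = 0.0711 by permutation). With the first member the same probe had r = 0.38, and without that span 0.28, still past the threshold (adjusted p = 0.0329 by permutation).

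Negative pairs were led by Gpr137b, a lysosomal membrane protein gene, with r = -0.55 and rho = -0.37 over all but its 26 silent mice (adjusted p = 2.81e-05 by permutation), Casp9 with r = -0.50 and rho = -0.33 over all but 15, and Gnaq with r = -0.45 and rho = -0.29 over all but 13. The Casp9 probe of this pair was detected in 46 of the detecting mice, and so lay near the floor in most. The Gnaq probe of its pair was detected in 94 of the detecting mice, with a median of 5.05 log2, also near the floor. In all 3 the sign was the same in both title number ranges, and without the lower span r was -0.32, -0.31 and -0.22, still past the threshold. The other Gpr137b probe of this pair had medians of 7.34 log2 in detecting mice and 7.81 in silent mice, and so was brighter where the member was silent. Further kept probes of these genes did not pass by r. For Gpr137b r was 0.14 (rho = 0.28, which passed) and -0.12, for Casp9 0.15 and for Gnaq 0.17, so the negative relation held for 1 probe of each gene. Glmp and Papss2, with r = -0.37 and -0.31, had rho of 0.01 and -0.05 that did not pass.

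Silent mice were compared between members as the number shared over the number silent for either. Over all 2775 pairs the median was 0.08, and 24 pairs, or 0.865%, reached 0.3. Pairs that lie close together on a chromosome shared more. Of 28 pairs of different genes with at most 100 genes between them, 11 (39.3%) reached 0.3, with a median of 0.20, whereas of 2023 pairs on different chromosomes 6 (0.297%) did, with a median of 0.07. Gene order came from the RefSeq table of GRCm38.p6, and pairs are not independent because each member enters many of them.

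Aldh1a7 and the clone 1110059E24Rik, with 4 genes between them, shared 20 silent mice, which is 83.3% of those of Aldh1a7 and 80% of those of the clone. Gnaq, with 15 genes to Aldh1a7, shared 9 of its 13 silent mice with it, or 69.2%, which is 37.5% of those of Aldh1a7. All 11 silent mice of Psip1, a chromatin-tethering factor, were among the 28 of Plaa, a ubiquitin-binding protein gene 58 genes away. Of the 10 silent mice of Glmp, which encodes a lysosomal membrane protein, 9 were among the 19 of S100a8, with 91 genes between. Itprid2 and Nostrin, 83 genes apart, shared 7 mice, Cdh5 and Lonp2, a peroxisomal protease gene 88 genes away, shared 12, and Sri, a calcium-binding protein gene, and Armc10, 53 genes apart, shared 11. Isca1 and 4833439L19Rik shared 8 with 74 genes between. Not every near pair shared silent mice, and the lowest value among these 28 pairs was 0.

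At 0.7 or more there were 2 groups, the 2 Actb probes (51 shared of 53 and 52 silent mice) and Sln with Mybphl. All 11 silent mice of Sln, which encodes the sarcolipin that inhibits the muscle calcium pump, were among the 13 of Mybphl, a myosin-binding protein gene of the atria, although the genes lie on different chromosomes. At 0.5 or more the group widened to Mb, the myoglobin gene, and Myl3, a ventricular and slow muscle myosin light chain gene, with 9 mice silent for all 4 and 25 for any. Sln had 4.98, 9.40 and 11.87 log2 in detecting mice and 4.35, 4.42 and 4.58 in 11 silent mice, and Mybphl 4.89, 8.91 and 10.98 in detecting mice and 4.27, 4.40 and 4.73 in 13 silent mice. Mb had 4.96, 8.93 and 12.15 log2 in detecting mice and 4.28, 4.49 and 4.79 in 14 silent mice. Myl3, with 4.86, 8.28 and 11.61 log2 in detecting mice and 4.26, 4.42 and 4.78 in 23 silent mice, had 28 mice in the middle of the span between its medians, from 0.333 to 0.667 of the way. Promoters of the muscle members that move together are printed from RefSeq (GRCm38.p6), as the 250 bases before the annotated start, in lower case with any TATAAA, CArG or MEF2 match on either strand in capitals. Of the 4 muscle members, Mybphl, Myl3 and Mb matched an entry, and Sln did not. Mb has 3 annotated starts, and the second listed is shown.
Mybphl, chr3:108364661-108364910, plus strand: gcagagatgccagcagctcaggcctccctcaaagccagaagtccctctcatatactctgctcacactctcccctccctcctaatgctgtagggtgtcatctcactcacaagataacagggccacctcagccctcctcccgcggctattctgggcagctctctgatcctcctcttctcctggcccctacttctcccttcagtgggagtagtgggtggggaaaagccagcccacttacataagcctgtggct
Myl3, chr9:110763428-110763677, plus strand: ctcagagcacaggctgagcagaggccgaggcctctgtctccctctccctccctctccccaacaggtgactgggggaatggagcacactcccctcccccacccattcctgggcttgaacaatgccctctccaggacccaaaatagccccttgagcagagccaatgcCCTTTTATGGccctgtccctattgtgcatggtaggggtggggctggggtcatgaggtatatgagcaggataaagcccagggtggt
Mb, chr15:77022788-77023037, minus strand: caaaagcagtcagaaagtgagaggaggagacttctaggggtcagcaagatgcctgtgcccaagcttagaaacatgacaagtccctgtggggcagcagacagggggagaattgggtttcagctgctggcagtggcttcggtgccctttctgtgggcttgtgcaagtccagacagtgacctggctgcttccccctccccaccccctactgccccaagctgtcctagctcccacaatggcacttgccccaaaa

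The capitals in the Myl3 promoter mark a CArG box, the motif that serum response factor binds, beginning 85 bases before the start. Among the first listed promoters of 27025 genes, 1.40% held a CArG match, 3.01% a MEF2 match, 13% TATAAA and 66% the E-box CANNTG. Mybphl held none of the 4 in this window, Mb held 2 E-boxes in the window shown, and Myl3 held 1. E-boxes are not capitalised, and a match describes letters only.

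For each member whose gene could be placed, the kept probe of another placed gene with the highest correlation over the 138 mice was found. In 52 of 66 members (78.8%) that gene lay within 100 genes, with a median of 18 genes between over those on the same chromosome, and in 60 (90.9%) on the same chromosome. Among all 20376 kept placed probes the shares were 22.6% and 30.2%, and among bright probes detected in every mouse 20.4% lay within 100 genes. The correlations of the members with these genes ran from 0.51 to 0.97 (median 0.77) and are descriptions, since the highest was picked each time. The nearest included Kng1 with its neighbouring paralog Kng2 (r = 0.93, 0 genes between), whose near-identical sequences the array may not separate. Senp2 was closest to Alg3 (r = 0.95, 21 between), Ddx21, an RNA helicase gene, to Slc25a16 (r = 0.94, 4 between), Rpusd4, of mitochondrial RNA processing, to Fam118b (r = 0.92, 0 between) and Sri to Cldn12 (r = 0.92, 9 between). The most alike probes for S100a8 were those of Fam189b (r = 0.76, 59 between) and Ensa (r = 0.74), and not a neutrophil gene. Tmem14c came closest to Iars (r = 0.55), Isca1 to Smad5 (r = 0.82), Emb, a partner of monocarboxylate carriers, to Plpp1 (r = 0.58) and Psmc5 to Map3k3 (r = 0.77), all on the same chromosome as the member. The 6 exceptions on other chromosomes were Sln and Mybphl with each other (r = 0.97), Mb with Ckmt2 (r = 0.93), a muscle creatine kinase gene of mitochondria, Myl3 with Tnnc1 (r = 0.80), cardiac troponin C, Cfd with Adipoq (r = 0.78) and Pigt with Dctn1 (r = 0.61).

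Title number ranges were compared for every kept probe with limma. None of the 24450 kept probes and none of the 75 members differed at an adjusted p under 0.05 (0% called), and 899 probes (3.68%) but no member had an unadjusted p under 0.05. The largest difference in each direction among members was in S100a8, lower over 120, with 9.17 ± 2.75 log2 in 64 mice over 120 and 9.89 ± 2.06 in 74 mice under 120 (SD; limma, adjusted p = 0.993), and in Aoc3, higher over 120, with 8.19 ± 1.89 and 7.60 ± 1.97 (SD, adjusted p = 0.993). Both were smaller than the spread within either range.

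Which members rose or fell with mucus production, type 2 inflammation or the amount of a cell type was asked by fitting each kept probe on list scores, each the mean z value of the list's kept genes over the 138 mice (a list gene was fitted without itself), with limma and Benjamini-Hochberg adjustment over all kept probes. Slopes give the log2 change for 1 SD of a score, and silent mice enter at their floor values. On the mucous score, of 9 kept genes such as Clca1 and Muc5ac, 9 members passed (8 higher, 1 lower), or 12.0%, beside 25.5% of all kept probes (10.9% higher, 14.6% lower). On the type 2 immune score, of 13 kept genes such as Il13 and Ccl11, 2 members passed (1 higher, 1 lower), beside 23.2% (10.7% higher, 12.5% lower). In neither fit did the slope of any kept probe differ between the title number ranges (0% called), although 1120 and 1522 probes had an unadjusted p under 0.05 for that difference.

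ITLNB had the steepest slope on both, 1.24 ± 0.18 per SD of the mucous score (SE, adjusted p = 7.06e-08 by limma) and 1.03 ± 0.19 per SD of the type 2 score (SE, adjusted p = 9.35e-06 by limma). The mucous score was also followed by all 4 muscle members, with slopes of 0.93 ± 0.14 for Sln, 0.89 ± 0.14 for Mb, 0.87 ± 0.13 for Mybphl and 0.78 ± 0.16 for Myl3 (SE), by Cfd (0.69 ± 0.17), Kng1 (0.61 ± 0.20) and Emb (0.58 ± 0.22), and inversely by Sh3glb1, a membrane-bending protein gene (-0.36 ± 0.12). Cardiac genes moved with that score as a whole: 8 of 8 kept cardiac markers and 4 of 5 kept skeletal muscle markers were higher with it, whereas 0 of 8 cardiac markers passed on the type 2 score; the part of heart muscle RNA in the muscle members' slopes was not tested. Amotl1 was lower with the type 2 score (-0.33 ± 0.13 SE, adjusted p = 0.0478 by limma), with adjusted p up to 0.379 over the alternatives. Among mice under 120 the mucous score called 5 members, and Emb and Kng1 were among those no longer past the threshold in at least 1 alternative.

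On the other 19 scores 28 of 75 members passed at least once, beside 82.4% of kept probes. The cardiac score called 5 members, all higher, beside 1.5% of kept probes called and 1.35% called higher: Mybphl (1.73 ± 0.04), Sln (1.77 ± 0.06), Mb (1.73 ± 0.06), Myl3 (1.54 ± 0.11) and Cfd (1.16 ± 0.15), all slopes with SE and past the threshold in every alternative. Sln is itself on the cardiac list and was fitted without itself, but it is part of the score that the others were fitted on. The same 4 muscle members passed on the adipose score (beside 0.389% called and 0.38% called higher), which has 3 kept genes, Cfd among them, and none did in mice under 120 alone. Because Cfd is itself a member and followed the cardiac score, these adipose slopes are partly built in. The part of fat cell RNA in them was not tested. On the skeletal muscle score those 4, Cfd and Kng1 passed, beside 7.57% called and 4.66% called higher. S100a8 followed the neutrophil score at 0.91 ± 0.19 (SE, adjusted p = 8.43e-04 by limma, beside 2.87% of kept probes called), and its adjusted p reached 0.0772 in the least favourable alternative. Cdh5 was the 1 member called on the endothelial score (0.59 ± 0.20 SE, adjusted p = 0.0166 by limma, beside 30.4%), with adjusted p up to 0.459 over the alternatives.

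The club cell score called 6 members, all higher, beside 12.7% of kept probes called and 7.16% called higher: 1110059E24Rik (0.64 ± 0.14), Mb, Sln, Cfd, Mybphl and Gnaq (0.44 ± 0.13, SE), but 0 in mice over 120 and 1 in mice under 120. Aldh1a7, itself a member, is 1 of the 7 kept genes of this score. Since 1110059E24Rik and Gnaq share silent mice with Aldh1a7, their slopes are partly built in. Of the 7 list genes, only Scgb3a1 passed when fitted without itself, so the score is a weak reading of club cell amount. The xenobiotic score called 9 (6 higher, 3 lower), beside 37% of kept probes (18.9% higher, 18.1% lower), with slopes from 0.68 ± 0.15 for Gm4956 to -0.71 ± 0.20 for ITLNB (SE). LIP1 and Ak3, which shared 13 silent mice, were both lower with the B and plasma cell score (-0.67 ± 0.17 and -0.58 ± 0.18, SE), beside 4% of kept probes called and 1.2% called lower. Their adjusted p by limma reached 0.41 and 0.44 in the least favourable alternatives. Rnf7 and Pigt, of glycolipid anchor attachment, were lower with the T cell score, beside 8.54% called and 2.82% called lower, and Fnip1 and Isca1 higher with the erythroid score, beside 14.3% called and 7.08% called higher. Over the alternatives the adjusted p by limma reached 0.26 for Rnf7, 0.34 for Pigt, 0.32 for Fnip1 and 0.44 for Isca1. Alveolar type 1 and type 2, eosinophil, interferon gamma, proliferation and Y-linked scores called 1 to 3 members each, beside 28.2%, 35.2%, 22.7%, 7.73%, 28% and 24% of kept probes. No member passed by limma on the interferon, ciliated or clock scores, beside 4.67%, 7.06% and 2.32% of kept probes, where 3, 2 and 3 members had an unadjusted p under 0.05.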

How the data were processed

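RNA from 138 lungs was measured on Illumina WG6v2 bead arrays. The authors deposited, per the file headers, an unnormalized average intensity and a detection p-value for each probe and array, and log2 values made, per the submitters' processing notes and the series' design, with GenomeStudio and R 2.9.2 by RMA with quantile normalization. Each deposited log2 column correlated best with its own array's intensities (r 0.996 to 1.00; column medians 5.57). Intensities were background-corrected and quantile normalized with limma 3.58.1 (neqc, offset 16) in R 4.3.3. Quantile normalization sets equal distributions, so overall shifts are removed. Names came from the target column, updated through RefSeq GRCm38.p6 (of the members, 48 by symbol, 18 by synonym, 1 by gene ID, 8 as in the file). Permutation tests and mixtures used Python 3.11.15, numpy 2.4.6 and scipy 1.17.1. The fits and mixtures were tested on simulated data.

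The members, the 21 lists, the families and the tests were chosen with earlier results of these data known. Named genes are members with the 20 largest folds, in shared silent groups, with the largest slopes or correlations with other probes, on a list, or at a threshold; genes described by role beyond these were named after their values were seen. Alternatives were the deposited log2 values, no background correction, other filters, mice left out and title ranges; each fit was adjusted separately per score. The number of arrays limits precision. Probe sequences and genotypes were not used here, so whether silent mice share an allele at the gene was not tested.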

Additional observations from a re-analysis of the deposited data

How the results depend on the processing

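Silent calls rest on a p threshold and levels below the floor have no order, so only bounds are known there. The members made up 0.269% of the 45281 probes with a 75th percentile of 8.5 or more and 0.0574% with 10 or more, against 0.166% with 9, and stayed within 1.5 times of that share with a detection p of 0.01 (0.219%) or normalized brightness (0.157%). Groups of shared silent mice numbered 5 at 0.5 and 1 at 0.9, against 2 at 0.7. Members with separate levels were 67 or 68 under each alternative. Correlated pairs of probes ranged from 31 to 42, and no called correlation changed sign; leaving out detecting mice in the lower span, chosen after seeing the data, gave 38, with 6 of the 39 pairs no longer past the threshold. The type 2 score called 1 member with the deposited values, 1 with no filter on dim probes, 4 among probes detected in at least 69 mice and 1 in mice under 120. In mice under 120 alone the mucous score called 5 members and 2108 probes, against 9 and 6243 in all mice, and in mice over 120 it called 2384 probes. The type 2 score called 1479 probes in mice under 120, against 5662. On the other scores 12 members were called in mice under 120 and 17 in mice over 120, against 28. Members called in mice under 120 were 0 on the adipose score, 1 on the club score and 3 on the xenobiotic score, and in mice over 120 the club score called 0. Without the 2 mice of most extreme score, the xenobiotic score called 15. Fewer mice enter each range, which lowers the number of calls. No title number range call appeared under any alternative. No slope of a called member reversed sign. No paired analysis was possible because the labels give 1 group with 1 mouse per line.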
